A study of Sus scrofa with 18 samples.

Results

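Y RNAs are the subject here: the 9 rows of the count table that its annotation types as Y_RNA, out of 31908 rows, each carrying the symbol Y_RNA and an Ensembl identifier of its own. They were taken by this type alone, whatever their values. Y RNAs are short noncoding RNAs that RNA polymerase III transcribes from promoters lying upstream of the gene. In human and mouse cells they are held by the proteins Ro60 and La, and they are known for roles in the start of DNA replication and in the quality control of misfolded RNAs. Y RNAs and fragments of them also circulate in human blood, in vesicles and in protein complexes.

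The question was which circulating transcripts change in cardiogenic shock (CS) and during unloading of the left ventricle. Serum RNA of 6 female Danish Landrace pigs, 5 months of age and under anesthesia, was sequenced at 3 time points. Baseline was sampled before shock was induced, CS after microspheres had been injected into the left main coronary artery, and pVAD while an Impella CP, a percutaneous ventricular assist device, ran in the presence of that shock. Every pVAD library therefore comes from an animal in CS, there was no group in shock without the device at the later time, and time under anesthesia cannot be told apart from the treatment. Replicates 1 to 6 are the pigs. CS replicate 6 held 2484066 counts and was set aside, which left 6 Baseline, 5 CS and 6 pVAD libraries.

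The 17 libraries held 18229243 to 71488943 counts. The TMM factor, which scales each library for its composition, was lowest in CS replicate 4 (0.307) and pVAD replicate 6 (0.454). These were also the libraries in which the 4 most abundant transcripts took the largest shares of the counts, at 71.5 and 57.6%. Levels are reads per 1000000 counts of a library, called CPM where the total was corrected by the TMM factor and RPM where it was not. Serum holds no single cell type, so fewer cells releasing an RNA and less RNA per cell cannot be told apart. Of the marker lists used to look for blood cells, HBM and ALAS2 for red cells, GP1BB for platelets, LYZ for myeloid cells and CD79A for lymphocytes had 0 reads, although other markers of each list were counted.

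Y RNAs made up a small part of the serum RNA. All 9 rows together held 11032 reads, which is 0.00162% of all counts. Of these reads, 99.5% lay in 5 rows with at least 10 reads per library on average. ENSSSCG00000018101 had the most reads (3478), followed by ENSSSCG00000020402 (2834), ENSSSCG00000019375 (2194), ENSSSCG00000018715 (1943) and ENSSSCG00000018504 (532). The other 4 rows shared 51 reads: ENSSSCG00000018723 had 33, ENSSSCG00000031693 had 11, ENSSSCG00000018249 had 7 and ENSSSCG00000019803 had 0. For the last row, a count of 0 over the 17 libraries allows up to 3 reads, or 0.00439 RPM. These limits and all intervals on shares and on ratios of pooled reads cover counting error only, and not the spread between animals. Read numbers are not corrected for transcript length, so they do not rank the rows by abundance. The rows belong to 1 RNA family with similar copies in the genome, and how reads that match several copies were counted, and whether strand was used, is not given in the sources used here, so the division of reads among the 9 rows is uncertain.

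The summed Y RNA level spread widely within each time point. In RPM it ran from 4.83 to 36.7 at Baseline with a median of 15.9. In CS it was 16.3, 13.7, 12.8, 3.40 and 21.3 for replicates 1 to 5. On pVAD it ran from 10.4 to 33.6 with a median of 13.4. The 3 time points overlapped, and both the lowest and the highest values of Baseline lay outside the range of the pVAD libraries. The lowest value, 3.40, belonged to CS replicate 4.

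With TMM factors the highest library was another one. In CPM the sum ran from 5.82 to 30.5 at Baseline (median 16.8). In CS it was 19.5, 9.21, 13.9, 11.1 and 16.1. On pVAD it ran from 7.65 to 74.1 (median 10.8). The value of 74.1 was that of pVAD replicate 6, and the next highest pVAD library had 14.1. In pVAD replicate 6 the summed platelet markers stood at 193 CPM, against medians of 77.3 on pVAD and 81.8 at Baseline. The summed lymphocyte markers stood at 157 CPM, against medians of 55.9 on pVAD and 66.6 at Baseline. Markers of neutrophils and monocytes (140.2 CPM) and of hepatocytes (75.9 CPM) were also at their pVAD maximum there. Red cell markers were above their pVAD median. Markers of cardiomyocytes (24.5 CPM) and endothelium (249.5 CPM) were at their pVAD minimum. The lymphocyte markers were higher still in CS replicate 4, at 490 CPM against a CS median of 53.6, and the summed Y RNA level of that library, 11.1 CPM, was inside the range of the CS libraries. All marker sums are in CPM. The low TMM factors of pVAD replicate 6 (0.454) and CS replicate 4 (0.307) raise every CPM value of these libraries. The part of the scaling in the marker sums, and of these cells in the Y RNA level, was not tested.

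**Figure D1:**
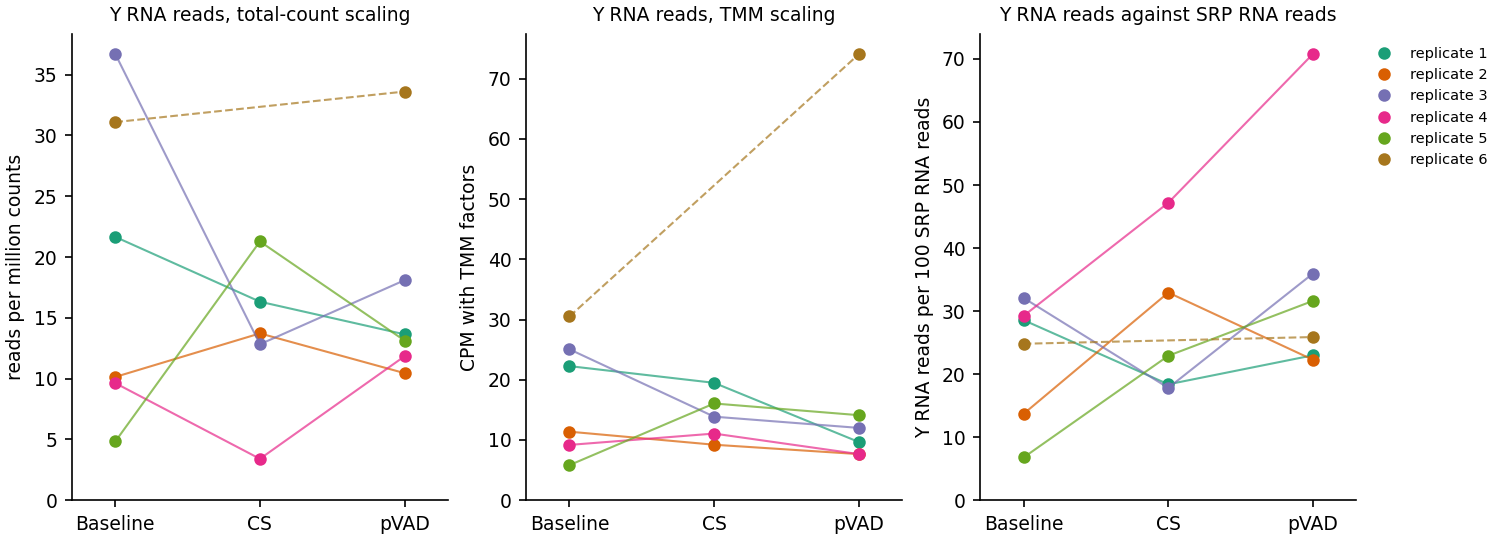
Summed level of the 9 Y RNA rows in each library at Baseline, in CS and on pVAD, in RPM (left), in CPM with TMM factors (middle) and as Y RNA reads per 100 reads of signal recognition particle RNA (right). Each point is a library and each line joins the libraries of a pig, with a dashed line for the pig without a CS library; the time points overlap in all panels and pVAD replicate 6 stands at 74.1 CPM in the middle panel.

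Signal recognition particle RNA, another short RNA made by RNA polymerase III, served as another scale. Its reads were taken as those of all rows that the annotation types as misc_RNA. Y RNA reads per 100 reads of it ran from 6.78 to 32.1 at Baseline (median 26.7). In CS they were 18.4, 32.9, 17.8, 47.2 and 22.9. On pVAD they ran from 22.3 to 70.8 (median 28.7). On this scale pVAD replicate 6 had 25.9, inside the range of the other pVAD libraries, and CS replicate 4 and pVAD replicate 4, both of the same pig, were the highest of their time points. The signal recognition particle RNA itself had 515 reads in CS replicate 4 and 654 in pVAD replicate 4, the lowest numbers of the 17 libraries.

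Within pigs, the direction of the summed level depended on the scale. On the CPM scale pVAD was lower than CS in 5 of 5 pigs, by a median of 1.94 CPM. In RPM, it was higher in 2 of them and lower in 3. CS was higher than Baseline in 2 pigs and lower in 3 on either scale. For pVAD against Baseline, 2 pigs were higher and 4 lower in CPM, but 4 were higher and 2 lower in RPM. No test was made of the sum.

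No Y RNA row with at least 10 reads per library passed the threshold in any of the 3 comparisons. The threshold was a fold change above 1.5 at an unadjusted p below 0.05, and the test was edgeR's quasi-likelihood test over 26146 genes. Of 8 Y RNA rows tested, 1 was called in CS vs. Baseline, where 2.82% of all genes tested were called. In pVAD vs. CS 0 of 8 were called, beside 2.43% of all genes, and in pVAD vs. Baseline 0 of 8, beside 0.834%. At an unadjusted p below 0.05 alone the numbers were 1, 0 and 0, and DESeq2 called 0 in each comparison. The smallest Benjamini-Hochberg adjusted p of a Y RNA row was 1 in CS vs. Baseline, 0.999 in pVAD vs. CS and 1 in pVAD vs. Baseline. Over all genes the smallest adjusted p was the same, so no transcript of the table passed an adjusted threshold.

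**Figure D2:**
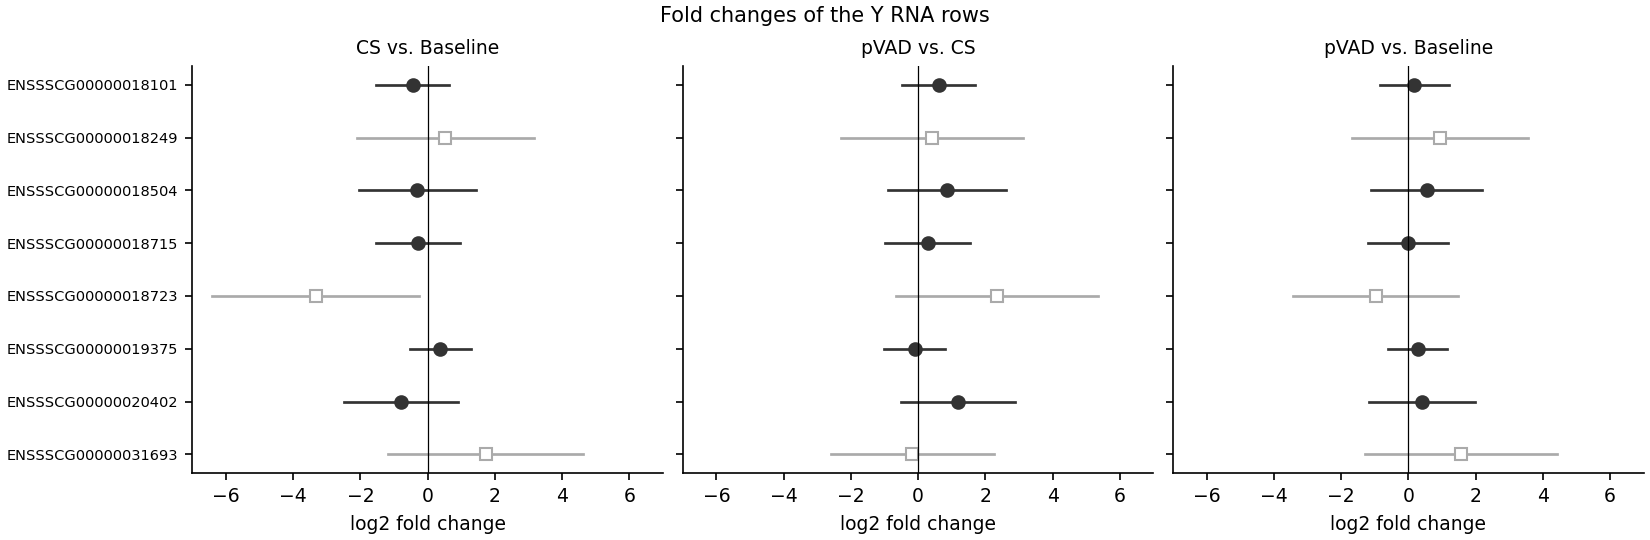
Log2 fold changes of the 8 tested Y RNA rows between each pair of time points, from edgeR's quasi-likelihood fit of 17 libraries. Points are estimates and bars are approximate 95% intervals (1.96 standard errors), filled for rows with at least 10 reads per library and open grey for sparse rows; the bars of all filled points cross 0.

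ENSSSCG00000018101, the row with the most reads, was found in every library. Its reads numbered 51 to 445 in Baseline libraries, 25 to 311 in CS libraries and 98 to 458 in pVAD libraries. Its level ran from 3.05 to 8.45 CPM at Baseline with a median of 5.90. In CS it was 4.50, 3.37, 6.04, 1.14 and 5.68 CPM. On pVAD it ran from 1.97 to 22.6 CPM with a median of 3.59. The lowest level was that of CS replicate 4 and the highest that of pVAD replicate 6, and the groups overlapped. The log2 fold change was -0.44 (SE 0.55, 95% interval -1.52 to 0.65) in CS vs. Baseline. In pVAD vs. CS it was 0.61 (SE 0.56, interval -0.48 to 1.70), and in pVAD vs. Baseline 0.18 (SE 0.53, interval -0.85 to 1.20). Without pVAD replicate 6 the value in pVAD vs. CS became -0.38 and that in pVAD vs. Baseline -0.82.

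ENSSSCG00000020402 varied most among the 5 rows. It had 0 reads in Baseline replicate 5 and 571 in pVAD replicate 6. The level ran from 0 to 13.1 CPM at Baseline (median 3.91). The CS libraries had 3.44, 1.41, 2.21, 4.14 and 3.03 CPM. The pVAD libraries ran from 0.551 to 28.1 CPM (median 2.65). The CS libraries lay inside the range of both other time points. The log2 fold change was -0.79 (SE 0.86, interval -2.48 to 0.90) in CS vs. Baseline and 1.19 (SE 0.87, interval -0.51 to 2.90) in pVAD vs. CS. In pVAD vs. Baseline it was 0.40 (SE 0.81, interval -1.18 to 1.99), and without pVAD replicate 6 the last 2 became -0.34 and -1.12.

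ENSSSCG00000019375 was the steadiest of the 5 rows in CPM, and the only one of them with a positive value in CS vs. Baseline. It ran from 1.44 to 3.97 CPM at Baseline (median 3.00). CS replicates 1 to 5 had 6.26, 2.85, 2.91, 2.73 and 3.86 CPM. Levels on pVAD ran from 0.942 to 9.21 CPM (median 2.66). In CPM 4 of 5 pigs were higher in CS than at Baseline, and in RPM 3 of 5. The log2 fold change in CS vs. Baseline was 0.37 (SE 0.47, interval -0.54 to 1.29), which did not pass the threshold. It was -0.10 (SE 0.47, interval -1.01 to 0.81) in pVAD vs. CS and 0.27 (SE 0.45, interval -0.60 to 1.15) in pVAD vs. Baseline. Without pVAD replicate 6 the value in pVAD vs. Baseline became -0.29.

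ENSSSCG00000018715 had 2 reads in Baseline replicate 5 and 51 to 239 in the other libraries. It ran from 0.132 to 5.46 CPM at Baseline (median 3.19). The 5 CS libraries had 4.09, 1.39, 2.13, 2.32 and 2.89 CPM. The 6 pVAD libraries ran from 1.22 to 9.90 CPM (median 1.99). Its log2 fold changes were -0.29 (SE 0.64, interval -1.55 to 0.97) in CS vs. Baseline, 0.29 (SE 0.64, interval -0.98 to 1.55) in pVAD vs. CS and -0.01 (SE 0.61, interval -1.20 to 1.19) in pVAD vs. Baseline. Without pVAD replicate 6 the value in pVAD vs. CS became -0.50 and that in pVAD vs. Baseline -0.79.

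ENSSSCG00000018504 was the least counted of the 5, with 0 reads in Baseline replicate 5 and 7 to 86 in the other libraries. It ran from 0 to 1.48 CPM at Baseline (median 0.724). In CS it was 1.20, 0.167, 0.582, 0.728 and 0.475 CPM. On pVAD it ran from 0.403 to 4.24 CPM (median 0.533). Its log2 fold changes were -0.31 (SE 0.89, interval -2.04 to 1.43) in CS vs. Baseline, 0.85 (SE 0.89, interval -0.90 to 2.60) in pVAD vs. CS and 0.54 (SE 0.84, interval -1.11 to 2.19) in pVAD vs. Baseline. Without pVAD replicate 6 the last 2 became -0.23 and -0.53.

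**Figure D3:**
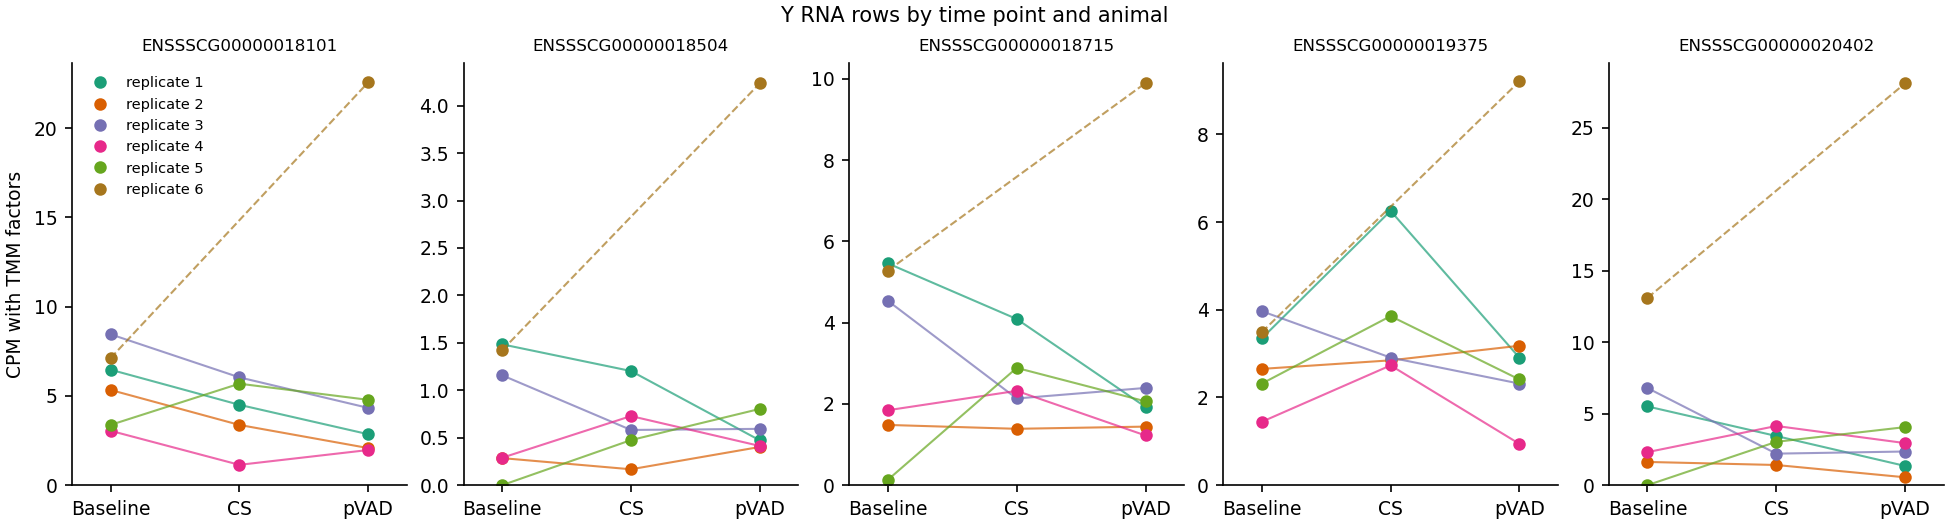
CPM with TMM factors of the 5 Y RNA rows with at least 10 reads per library at Baseline, in CS and on pVAD, with a panel for each row and a point for each library. pVAD replicate 6 is the highest point in each panel, from 4.24 CPM for ENSSSCG00000018504 to 28.1 CPM for ENSSSCG00000020402.

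Over the 5 rows, the median log2 fold change was -0.31 in CS vs. Baseline, 0.61 in pVAD vs. CS and 0.27 in pVAD vs. Baseline. Over the 24418 genes of the table with at least 10 reads per library it was -0.00, 0.01 and 0.01. The CS libraries enter the first 2 comparisons with opposite sign and the pVAD libraries enter the last 2, so these medians are not separate pieces of evidence. In CS vs. Baseline, leaving out single libraries moved the value of ENSSSCG00000020402 between -1.05 and -0.21, of ENSSSCG00000018101 between -0.61 and -0.20 and of ENSSSCG00000018504 between -0.68 and -0.02. The value of ENSSSCG00000018715 moved between -0.54 and -0.06 and that of ENSSSCG00000019375 between 0.10 and 0.49, so all 5 kept their sign in these fits. With the pig as a block, however, the sign turned for ENSSSCG00000018504 (0.28), ENSSSCG00000018715 (0.25) and ENSSSCG00000020402 (0.035). In pVAD vs. CS the fitted values were positive for 4 of the 5 rows, while 5 of 5 pigs with both libraries had a lower summed CPM on pVAD. The library that entered the fit but had no CS partner was pVAD replicate 6, and without it all 4 positive values were negative, as given above.

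The called row was ENSSSCG00000018723, which was sparse. In CS it had 1 read in replicate 2 and 0 in the other 4 libraries, against 7, 11 and 2 reads in Baseline replicates 3, 4 and 6 and 0 in the other 3 Baseline libraries. On pVAD it had 9, 1 and 2 reads in replicates 1, 3 and 4 and 0 in the others. The groups overlapped at 0. Pooled over libraries and scaled with TMM factors, its rate in CS was 0.0539 of that at Baseline, with an exact 95% interval of 0.00130 to 0.337 for the ratio. The fitted log2 fold change was -3.34 (SE 1.57, unadjusted p = 0.0451, adjusted p = 1 by edgeR's quasi-likelihood test). An exact two-sided permutation test over the 462 arrangements of the CS and Baseline libraries gave p = 0.182. The call was lost with DESeq2 and when any of 9 of the 17 libraries was left out, among them Baseline replicates 3, 4 and 6. With the pig as a block it was lost as well, at a log2 fold change of -2.77. In pVAD vs. CS the row had a fitted log2 fold change of 2.36 (SE 1.53), and in pVAD vs. Baseline of -0.98 (SE 1.26), neither past the threshold.

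The remaining rows had reads in few libraries. ENSSSCG00000031693 had 5 reads in CS replicate 5, against 1 in Baseline replicate 3, and on pVAD 4 in replicate 4 and 1 in replicate 6. ENSSSCG00000018249 had 2 reads in CS replicate 5, against 1 in Baseline replicate 6, and on pVAD 4 in replicate 4. Thus pVAD replicate 4 and CS replicate 5 held most of the reads of both rows. The pooled CS to Baseline ratio was 5.39 (exact interval 0.603 to 255) for ENSSSCG00000031693 and 2.16 (0.112 to 127) for ENSSSCG00000018249, and neither row was called in any comparison.

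The makeup of the Y RNA reads varied between libraries. ENSSSCG00000018101 gave 10.3 to 58.0% of the Y RNA reads of a library (median 33.2%), ENSSSCG00000019375 11.4 to 41.6% (median 21.0%) and ENSSSCG00000020402 0 to 43.0% (median 19.6%). ENSSSCG00000018715 gave 2.27 to 24.5% (median 17.975%) and ENSSSCG00000018504 at most 6.67% (median 4.89%). The lowest share of ENSSSCG00000018101, 10.3% in CS replicate 4, had a Wilson 95% interval of 7.07 to 14.7%, and the highest, 58.0% in Baseline replicate 5, one of 47.5 to 67.7%. Baseline replicate 5 had only 88 Y RNA reads, all in 3 rows, and for its 0 reads of ENSSSCG00000020402 the upper Wilson bound was 4.18%.

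The shares of ENSSSCG00000020402 within a pig moved in different ways. In pig 2, ENSSSCG00000020402 took 14.3% of all Y RNA reads in the Baseline library, 15.3% in the CS library and 7.20% in the pVAD library. In pig 4 it gave 25.2% at Baseline, 37.4% in CS and 38.4% on pVAD, and in pig 6 43.0% at Baseline and 38.0% on pVAD. In pig 1 it gave 24.7% at Baseline, 17.7% in CS and 13.9% on pVAD, in pig 3 27.1, 15.9 and 19.6%, and in pig 5 0, 18.9 and 28.8%. Pooled over libraries, ENSSSCG00000019375 gave 26.7% of the Y RNA reads in CS, against 15.9% at Baseline, and 19.0% on pVAD. ENSSSCG00000020402 gave 19.0% in CS, against 28.1% at Baseline, and 28.0% on pVAD. For both rows the shares of single CS libraries lay inside the range of the Baseline libraries, and no test of shares was made. For ENSSSCG00000019375 the top of that range was 39.8% in Baseline replicate 5, which had only 88 Y RNA reads. The next highest Baseline share was 23.3%, in replicate 2, and CS replicates 1 to 5 had 32.1, 30.9, 21.0, 24.7 and 24.0%.

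**Figure D4:**
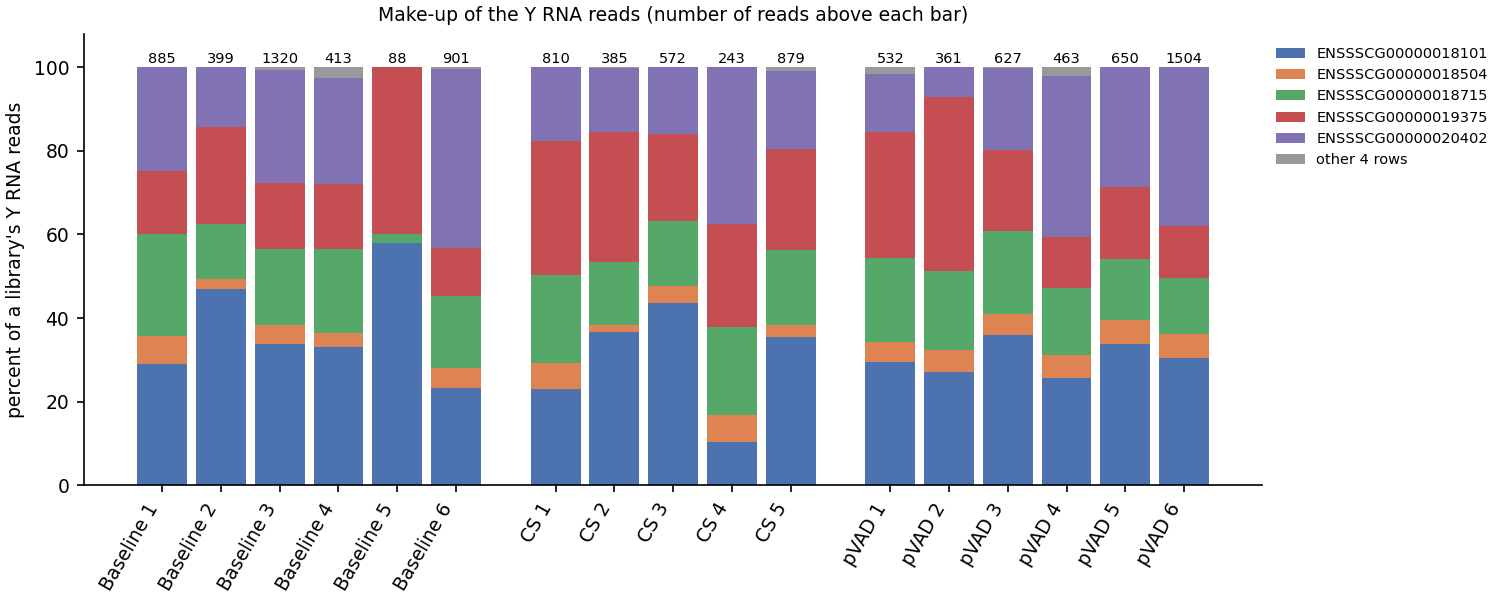
Share of each Y RNA row in the Y RNA reads of each library (percent, stacked), with libraries grouped by time point and the number of Y RNA reads above each bar. Baseline replicate 5, with 88 reads, has no reads of ENSSSCG00000020402, and ENSSSCG00000018101 takes 58.0% there and 10.3% in CS replicate 4.

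The genes whose log2 CPM followed ENSSSCG00000018101 most closely over the 17 libraries, among 13845 candidates that had a symbol and a mean of 10 or more reads, were a row of signal recognition particle RNA, ENSSSCG00000023048 (Pearson r = 0.85), EFEMP1 (0.82), MAGI3 (0.82), DEFB108B (0.79) and MACC1 (0.78). EFEMP1 encodes an extracellular matrix protein, MAGI3 a scaffold protein of cell junctions, DEFB108B a defensin and MACC1 a regulator of the MET receptor gene. All points share library depth and the TMM factor of the library. Without pVAD replicate 6 the same r were 0.78, 0.75, 0.70, 0.77 and 0.68. The other 4 of the 5 Y RNA rows had r of 0.51 to 0.66 with ENSSSCG00000018101, and 0.33 to 0.46 without pVAD replicate 6. By r they ranked 196, 700, 858 and 1143 among the candidates, and 746 to 1857 without pVAD replicate 6.

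The proteins of the Y RNA particle are Ro60, a ring-shaped RNA-binding protein encoded by RO60, and La, encoded by SSB, which binds the ends of new RNA polymerase III transcripts. Their mRNAs showed no change that passed the threshold. RO60 averaged 4.90 ± 1.59 CPM at Baseline (SD, n = 6), 4.38 ± 3.02 CPM in CS (n = 5) and 4.51 ± 1.18 CPM on pVAD (n = 6). SSB averaged 1.76 ± 1.80, 1.37 ± 1.12 and 1.10 ± 0.557 CPM at the same time points. RO60 ran from 1.68 CPM in CS replicate 1 to 9.33 CPM in CS replicate 4, and SSB had 0 reads in Baseline replicate 2.

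The wider machinery was looked at through 4 lists: Ro60, La and other Y RNA binding proteins, enzymes that trim or degrade Y RNA ends, subunits of RNA polymerase III, and factors of its type 3 promoters. Of 57 genes listed 51 were tested. In CS vs. Baseline 0 were called, beside 2.82% of all genes, with 0 at an unadjusted p below 0.05 and 0 by DESeq2. The same 3 counts were 0 in pVAD vs. CS, beside 2.43% of all genes. With the pig as a block 1 of the 51 genes was called in each of these comparisons. The share of all genes called was not counted in that fit. FIP1L1, a factor of mRNA 3' end processing, had a log2 fold change of 0.66 in CS vs. Baseline (SE 0.30, edgeR adjusted p = 1), and HNRNPK, an RNA-binding protein gene, one of -0.76 in pVAD vs. CS (SE 0.36, edgeR adjusted p = 1). Without the block 1 was called in pVAD vs. Baseline, beside 0.834% of all genes, and it was lower. This was POLR2E, a subunit shared by the 3 nuclear RNA polymerases, with 3.42 ± 0.943 CPM on pVAD and 5.75 ± 1.74 CPM at Baseline (SD, n = 6 each; log2 fold change -0.74, SE 0.34, edgeR unadjusted p = 0.0412, adjusted p = 1). With the pig as a block POLR2E was called as well (log2 fold change -0.74, SE 0.32), and the call was lost in 11 of 27 alternative settings. The median log2 fold change over the 51 genes was 0.10 in CS vs. Baseline, -0.11 in pVAD vs. CS and -0.00 in pVAD vs. Baseline, beside -0.00, 0.02 and 0.01 over all genes tested.

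Beside the 1 of 8 Y RNA rows (12.5%) called in CS vs. Baseline, other classes of short RNA in the table had these shares of calls, against 2.82, 2.43 and 0.834% of all genes in the 3 comparisons. Of 378 small nuclear RNA rows tested, 13.2% were called in CS vs. Baseline, 16.9% in pVAD vs. CS and 9.79% in pVAD vs. Baseline. Of 134 small nucleolar RNA rows, 17.2, 8.96 and 12.7% were called. Of 118 miRNA rows, 11 to 11.9% were called in each comparison. Of 7 scaRNA rows, which guide RNA modification in Cajal bodies, 28.6, 14.3 and 0% were called. None of the 7 misc_RNA rows, taken here as signal recognition particle RNA, the 4 ribozyme rows and the 1 vault RNA row was called in any comparison. The difference between the classes was not tested.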

How the data were processed

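Serum RNA was sequenced by the authors with a low-input kit as paired-end reads. Per the labels and methods, the authors trimmed reads with Trim Galore 0.4.4, aligned them with STAR 2.4.2a and assigned them to Ensembl genes by featureCounts (R 3.6.0); the genome build is not given in the sources used here. What the authors deposited are raw, unscaled counts.

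The counts of 17 libraries were analysed in R 4.3.3. CS replicate 6 was left out of the comparisons, as in the study, and no 2 libraries held identical counts. Genes with at least 5 reads in total were fitted with edgeR 4.0.16 (TMM factors, quasi-likelihood test, two-sided, time point as the only term), and p values were Benjamini-Hochberg adjusted over the 26146 genes tested. Log2 CPM took a prior count of 2. The script was tested on simulated counts. The depth per library, 18229243 to 71488943 counts, limits the precision of sparse rows. The limit of 3 reads is given beside a count of 0 and replaced no count.

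All rows typed Y_RNA were named, whatever their values. Of the 4 partner lists, RO60, SSB and the called members were named, and the genes most like the most-read Y RNA row were those with the highest Pearson r of log2 CPM. The members and lists were chosen with earlier results of these data known. A sheet of the authors names the pig behind every library, and libraries of the same replicate number are from the same pig. Deviations from the group means of 24418 genes had a median correlation of 0.14 (-0.25 to 0.60) over 16 pairs of the same pig and -0.02 (-0.51 to 0.40) over 80 pairs of different pigs. The alternatives were DESeq2 1.42.0, other scalings, filters, the pig as a block, all 18 libraries, 2 time points only and leaving out each library. Leaving out both libraries with the lowest TMM factors was added after seeing the data.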

Additional observations from a re-analysis of the deposited data

Results flagged for a closer look

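In 15 of 36 groups of values the highest library stood apart from the others by the 95% limit of Dixon's test. The 36 include the groups of ENSSSCG00000019803, which had 0 reads in every library, so that none could stand apart. For measured values with a normal distribution chance reaches that limit in about 1 in 20 groups. In 6 of the 15 groups only 1 library had reads and the ratio was fixed by the zeros, so that rate does not apply to them. Of the other groups, 7 share the library pVAD replicate 6. pVAD replicate 6 stood apart with 22.6 CPM for ENSSSCG00000018101 (next highest pVAD library 4.78), 28.1 CPM for ENSSSCG00000020402 (4.06), 9.90 CPM for ENSSSCG00000018715 (2.39), 9.21 CPM for ENSSSCG00000019375 (3.18) and 4.24 CPM for ENSSSCG00000018504 (0.804). It also stood apart in the summed level, with 74.1 CPM (14.1) and 33.6 RPM (18.1). Other classes of short RNA were high in pVAD replicate 6 as well. In RPM, misc_RNA (129.9) and miRNA (80.07) were the highest of the 17 libraries. Small nucleolar RNA had 60.72 and small nuclear RNA 389.96, against medians of 15.96 and 101.8 over these libraries. Vault RNA was lower, at 0.402 against 0.6502. Baseline replicate 6, of the same pig, had the highest small nuclear (553.7) and small nucleolar RNA (67.06). Whether these levels share a cause was not tested. The TMM factor of pVAD replicate 6 was 0.454, and the part of the scaling in its levels in CPM was not tested. In RPM its level of ENSSSCG00000019375 was 4.18, below the 4.34 of pVAD replicate 2. This library was still the highest on pVAD in RPM for ENSSSCG00000018101 (10.2, next 6.52), ENSSSCG00000020402 (12.8, next 4.55), ENSSSCG00000018715 (4.49, next 3.61) and ENSSSCG00000018504 (1.92, next 0.894).

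pVAD replicate 4 had 70.8 Y RNA reads per 100 reads of signal recognition particle RNA, and the next highest pVAD library had 36.0. The other values that stood apart belong to sparse rows, in which a library with reads lay beside libraries with none or few. They were 0.164 CPM of ENSSSCG00000018723 in pVAD replicate 1 and 0.0239 CPM in CS replicate 2. For ENSSSCG00000018249 they were 0.0661 CPM in pVAD replicate 4, 0.0365 CPM in CS replicate 5 and 0.0339 CPM in Baseline replicate 6. For ENSSSCG00000031693 they were 0.0914 CPM in CS replicate 5 and 0.0190 CPM in Baseline replicate 3.

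CS replicate 6, which entered no comparison, held 49 Y RNA reads, and its levels of 2 rows were above every Baseline library. ENSSSCG00000018504 had 15 reads, or 6.04 RPM, against at most 1.70 at Baseline, and ENSSSCG00000018715 had 30 reads, or 12.1 RPM, against at most 6.64 at Baseline. ENSSSCG00000018101 had 4 reads there, and ENSSSCG00000019375 and ENSSSCG00000020402 had 0.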

How the results depend on the processing

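Calls of Y RNA rows in CS vs. Baseline numbered 1, and 0 with DESeq2, filterByExpr, total counts, 2 time points only, the replicate block or without the 2 libraries of lowest TMM factor. Leaving out single libraries gave 0 to 1. In pVAD vs. Baseline the fit without those 2 libraries called 1 of 8, ENSSSCG00000018101, at the unadjusted threshold. It was lower on pVAD there (log2 fold change -0.82, SE 0.35), against 0.18 in the main fit. Of 51 partner genes tested, the fit of all 18 libraries called 5 in CS vs. Baseline, 6 in pVAD vs. CS and 0 in pVAD vs. Baseline. Without single libraries the partner gene calls were 0 to 1, 0 to 1 and 0 to 3. The share of all genes called was not counted in these alternative fits. Whether the numbers of calls differ from that share is therefore not known. The cause was not tested.

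With the replicate block, which pairs the libraries of a pig, 1 of 51 partner genes was called in CS vs. Baseline and 1 in pVAD vs. CS. The share of all genes called in that fit was not counted. POLR2E stayed called in pVAD vs. Baseline. The sign turned in CS vs. Baseline for ENSSSCG00000018504 (0.28), ENSSSCG00000018715 (0.25) and ENSSSCG00000020402 (0.035). In pVAD vs. CS it turned for ENSSSCG00000018101 (-0.088), ENSSSCG00000018249 (-0.19), ENSSSCG00000018715 (-0.36), ENSSSCG00000020402 (-0.26) and SSB (0.27), and in pVAD vs. Baseline for ENSSSCG00000018101 (-0.39) and ENSSSCG00000020402 (-0.22). The block turned no uncalled Y RNA row into a call.

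Other settings turned the sign of log2 fold changes that were not called in the main fit of 17 libraries. In pVAD vs. Baseline, ENSSSCG00000018715 was 0.031 with DESeq2 and 0.023 with RLE size factors. With all 18 libraries, ENSSSCG00000018504 was 0.84 and ENSSSCG00000018715 0.36 in CS vs. Baseline, and in pVAD vs. CS they were -0.30 and -0.37, with ENSSSCG00000019375 at 0.11. With total counts, SSB was 0.24 and POLR2E 0.063 in pVAD vs. CS, and in pVAD vs. Baseline ENSSSCG00000018101 was -0.24, ENSSSCG00000020402 -0.25 and RO60 0.17. Without the 2 libraries of lowest TMM factor, pVAD vs. CS gave ENSSSCG00000018101 -0.61, ENSSSCG00000018504 -0.18, ENSSSCG00000018715 -0.54, ENSSSCG00000020402 -0.16 and SSB 0.32. In pVAD vs. Baseline the same fit gave ENSSSCG00000018101 -0.82, which it called, ENSSSCG00000018504 -0.54, ENSSSCG00000019375 -0.29 and ENSSSCG00000020402 -1.12.

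Leaving out single libraries also turned signs. In CS vs. Baseline the ranges were -1.40 to 1.97 for ENSSSCG00000018249, -1.22 to 2.93 for ENSSSCG00000031693, -0.64 to 0.040 for RO60 and -0.84 to 0.24 for SSB. In pVAD vs. CS they were -0.38 to 0.80 for ENSSSCG00000018101, -0.23 to 1.22 for ENSSSCG00000018504, -0.50 to 0.52 for ENSSSCG00000018715, -0.66 to 0.17 for ENSSSCG00000019375, -0.34 to 1.44 for ENSSSCG00000020402, -1.35 to 2.77 for ENSSSCG00000031693, -0.16 to 0.52 for RO60 and -0.62 to 0.19 for SSB. In pVAD vs. Baseline they were -0.82 to 0.37 for ENSSSCG00000018101, -0.53 to 0.83 for ENSSSCG00000018504, -0.79 to 0.23 for ENSSSCG00000018715, -0.29 to 0.47 for ENSSSCG00000019375, -1.12 to 0.98 for ENSSSCG00000020402 and -0.26 to 0.021 for RO60.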
